A study of Mus musculus with 4 samples.

Results

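The Zic genes encode zinc-finger transcription factors of the dorsal neural tube. The 4 members described here, *Zic1*, *Zic2*, *Zic4* and *Zic5*, were taken by gene symbol from the 24421 genes of the deposited expression table, and all 4 had a mean of at least 1 RPKM (reads per exon length and library size) in either genotype. GFP+ cells were sorted from dissociated neural tubes of E11.5 mouse embryos that carried a GFP knock-in at *Prdm13* on 1 allele (*Prdm13GFP/+*, labelled Prdm13 Het, 2 libraries) or on both alleles (*Prdm13GFP/GFP*, labelled Prdm13 Homo, 2 libraries). The knock-in disrupts *Prdm13*, so every library comes from cells with at least 1 disrupted allele, and no wild-type cells were sequenced. RNA of several embryos was combined into 1 pool per genotype, and both libraries of a genotype were made from that pool. They are technical replicates, and the SDs and p-values below hold the spread of library preparation and sequencing, with no variation between embryos. The comparison asks which Zic transcripts changed in the *Prdm13* lineage when both alleles were disrupted.

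ZIC proteins bind DNA through zinc fingers related to those of the GLI family, the effectors of Hedgehog signaling. In the developing neural tube they are expressed in dorsal cells, where they are known for keeping progenitors dividing, for neural tube closure and for neural crest formation. The 4 genes lie in head-to-head pairs, and in the human, loss of *ZIC2* causes holoprosencephaly while deletions that take *ZIC1* and *ZIC4* are linked to Dandy-Walker malformation. PRDM13 is a zinc-finger repressor that acts in the inhibitory dorsal lineage together with basic helix-loop-helix factors, which bind E-boxes (CANNTG).

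By the RefSeq annotation of GRCm38.p6, *Zic1* (gene ID 22771) occupies chr9:91358058-91365768 on the minus strand and *Zic4* (22774) chr9:91365631-91389351 on the plus strand. Their annotated spans overlap by 138 bases at the 5′ ends. On chromosome 14, *Zic5* (65100) occupies chr14:122459160-122465658 on the minus strand and *Zic2* (22772) chr14:122475384-122480328 on the plus strand, with 9725 bases between them. Each locus therefore holds a divergent pair, and the results below follow these pairs.

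The coding sequences of the members are near-identical in places, which bears on how reads of paralogs can be told apart. A 60-base coding window, found by the best ungapped match to *Zic1* in the GENCODE vM21 transcripts, is shown here for each member, 5′ to 3′ on the coding strand, with the 51 bases that are the same in all 4 genes in capitals.
*Zic1*: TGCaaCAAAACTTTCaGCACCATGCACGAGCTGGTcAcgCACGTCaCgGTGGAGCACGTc
*Zic2*: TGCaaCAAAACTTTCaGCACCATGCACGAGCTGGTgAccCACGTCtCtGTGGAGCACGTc
*Zic4*: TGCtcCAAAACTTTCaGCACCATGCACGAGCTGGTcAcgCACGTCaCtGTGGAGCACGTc
*Zic5*: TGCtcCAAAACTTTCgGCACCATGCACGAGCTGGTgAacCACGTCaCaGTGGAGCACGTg
The window lies in a single coding exon of each gene, at chr9:91364235-91364294 (*Zic1*, minus strand), chr14:122476489-122476548 (*Zic2*, plus strand), chr9:91379144-91379203 (*Zic4*, plus strand) and chr14:122464091-122464150 (*Zic5*, minus strand) of GRCm38. Against the *Zic1* window, 57 bases were the same in *Zic4*, 56 in *Zic2* and 52 in *Zic5*. Over the whole coding sequences the longest identical run was 42 bases, between *Zic1* and *Zic4*, and the other pairs shared runs of 20 to 35 bases. Transcripts were also searched for shared stretches, each on its own strand, so exon bases shared on opposite strands, given below, were outside that search. *Zic1* and *Zic4* had 7 overlapping stretches of 36 bases in common, all within the 42-base run, and the other pairs 0. No pair had an identical stretch of 50 bases by that search. A short read inside such a run could match more than 1 member, and how the authors' alignment placed it is not given in the sources used here.

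Promoter windows are shown for the start sites on which RefSeq gives sequence, since *Zic1* and *Zic4* were both called lower below. Windows of 300 bases, 250 before and 50 after the annotated start, were found for 3 of the 4 members, and not for *Zic2*. They are given 5′ to 3′ on the gene's own strand with E-boxes in capitals.
*Zic1*, chr9:91365719-91366018, minus strand: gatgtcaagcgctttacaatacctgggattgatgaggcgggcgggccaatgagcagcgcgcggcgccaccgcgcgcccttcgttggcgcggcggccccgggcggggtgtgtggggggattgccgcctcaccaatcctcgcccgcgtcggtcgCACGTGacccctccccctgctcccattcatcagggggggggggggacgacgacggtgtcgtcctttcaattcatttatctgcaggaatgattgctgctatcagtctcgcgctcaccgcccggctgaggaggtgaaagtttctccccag
*Zic4*, chr9:91368722-91369021, plus strand: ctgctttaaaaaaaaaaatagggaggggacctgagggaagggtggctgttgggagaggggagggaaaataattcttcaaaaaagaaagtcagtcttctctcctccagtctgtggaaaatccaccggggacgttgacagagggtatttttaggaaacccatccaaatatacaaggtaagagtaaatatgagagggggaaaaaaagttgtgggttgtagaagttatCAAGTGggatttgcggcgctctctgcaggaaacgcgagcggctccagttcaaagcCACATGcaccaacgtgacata
*Zic5*, chr14:122465609-122465908, minus strand: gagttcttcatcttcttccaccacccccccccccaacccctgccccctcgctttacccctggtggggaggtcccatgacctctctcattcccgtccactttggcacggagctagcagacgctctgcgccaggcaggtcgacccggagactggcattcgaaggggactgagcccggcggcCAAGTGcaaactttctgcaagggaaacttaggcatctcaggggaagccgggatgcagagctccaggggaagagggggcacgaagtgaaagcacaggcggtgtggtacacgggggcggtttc
The *Zic4* window lies inside the annotated span of *Zic4*, so it surrounds an internal start. The *Zic1* window held 1 E-box, CACGTG, 98 bases before the start. The *Zic4* window held 2, CAAGTG at 26 bases before and CACATG at position 29 after the start, and the *Zic5* window held 1, CAAGTG, 71 bases before it. CANNTG, whose reverse complement reads the same pattern, occurred in 72.1% of the 27025 RefSeq promoter windows of this length, so a match is common. CACGTG, which is 1 form of CANNTG and overlaps it, occurred in 7.24% of them. Neither CAGCTG (16.1% of windows) nor the GLI/ZIC-type sequence GACCACCCA, searched on both strands (0.244%), occurred in any of the 3 windows. GC content was 65.3% for *Zic1*, 62.7% for *Zic5* and 46.0% for *Zic4*, beside a median of 52.7% over all windows.

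*Prdm13* itself was read first as a check of the labels. It measured 114 and 127 RPKM in the *Prdm13GFP/+* libraries and 310 and 324 RPKM in the *Prdm13GFP/GFP* libraries, a log2 fold change of 1.40 (limma adjusted p = 3.63e-05). Reads of the disrupted allele still count toward the gene, so its RNA does not measure loss of the protein. The libraries held 12053318 to 19157832 reads on genes, as recovered from the RPKM steps, and 11774 to 11831 genes with at least 1 RPKM.

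*Zic1* and *Zic4* were lower in the *Prdm13GFP/GFP* cells, and *Zic2* and *Zic5* were not called. *Zic1* and *Zic4* each fell to 0.56 times their control level, whereas *Zic2* and *Zic5* stood at 1.23 and 1.22 times theirs, below the 1.5-fold limit for a call. A call needed a fold of 1.5 or more and a Benjamini-Hochberg adjusted p under 0.05, from limma on log2(RPKM + 0.1) over 12046 genes. By that rule 2 members were called lower and 0 higher, where 2.67% of all genes tested were called lower, 3.65% higher and 6.33% in either direction. In such bulk libraries, fewer cells that express a gene and less RNA per cell cannot be told apart.

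*Zic1*, known for holding dorsal progenitors back from differentiation, was the most abundant member. It measured 148 and 162 RPKM in the *Prdm13GFP/+* libraries and 86.5 and 87.4 RPKM in the *Prdm13GFP/GFP* libraries. Both mutant libraries lay below both control libraries, and the gap between the genotypes was several times the gap within either. The means were 155 ± 10.3 and 87.0 ± 0.602 RPKM (SD, n = 2 libraries), a log2 fold change of -0.83 (SE 0.0558, 95% interval -0.97 to -0.70, limma adjusted p = 0.000247). Its recovered reads numbered 4004 to 9973 per library, so counting error was 1.00 to 1.58% of the value. By mean RPKM it ranked 499 of the 12046 genes tested.

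*Zic4*, the head-to-head neighbour of *Zic1*, changed by a similar factor at a lower level. It measured 18.5 RPKM in each *Prdm13GFP/+* library, and 10.6 and 10.2 RPKM in the *Prdm13GFP/GFP* libraries. The libraries of the genotypes did not overlap. The means were 18.5 ± 0.0376 and 10.4 ± 0.296 RPKM, a log2 fold change of -0.83 (SE 0.0567, 95% interval -0.96 to -0.69, limma adjusted p = 0.000272). It rested on 568 to 1383 reads per library.

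*Zic2*, which is needed for forebrain midline development and neural tube closure, was not called. It measured 22.5 and 25.3 RPKM in the *Prdm13GFP/+* libraries and 29.4 and 29.6 RPKM in the *Prdm13GFP/GFP* libraries. Both mutant libraries were above both control libraries, and the control libraries were the more spread of the pair. The means were 23.9 ± 1.95 and 29.5 ± 0.0936 RPKM, a log2 fold change of 0.31 (SE 0.0669, 95% interval 0.15 to 0.47). Its limma adjusted p was 0.0238, but its fold of 1.23 missed the limit and it was not called. Adjusted p-values under 0.05 at any fold were reached by 9.76% of all genes tested in the higher direction and 9.95% in the lower, so such a p was common in these libraries. The adjusted p of *Zic2* ran from 0.0334 to 0.154 when 1 library was left out.

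*Zic5*, the least abundant member and the neighbour of *Zic2*, was not called either. It measured 5.84 and 5.86 RPKM in the *Prdm13GFP/+* libraries and 7.48 and 6.75 RPKM in the *Prdm13GFP/GFP* libraries. The genotypes did not overlap, and the mutant libraries lay farther apart than the controls. The means were 5.85 ± 0.0176 and 7.12 ± 0.520 RPKM, a log2 fold change of 0.28 (SE 0.0794, 95% interval 0.09 to 0.47, limma adjusted p = 0.0548), and it did not pass the test. It had the fewest reads, 322 to 580 per library, with a counting error of up to 5.57%. The genotypes did not overlap in any of the 4 members, but this held for 62.1% of all genes tested, 30.3% with the mutant libraries lower and 31.7% with them higher.

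**Figure D1:**
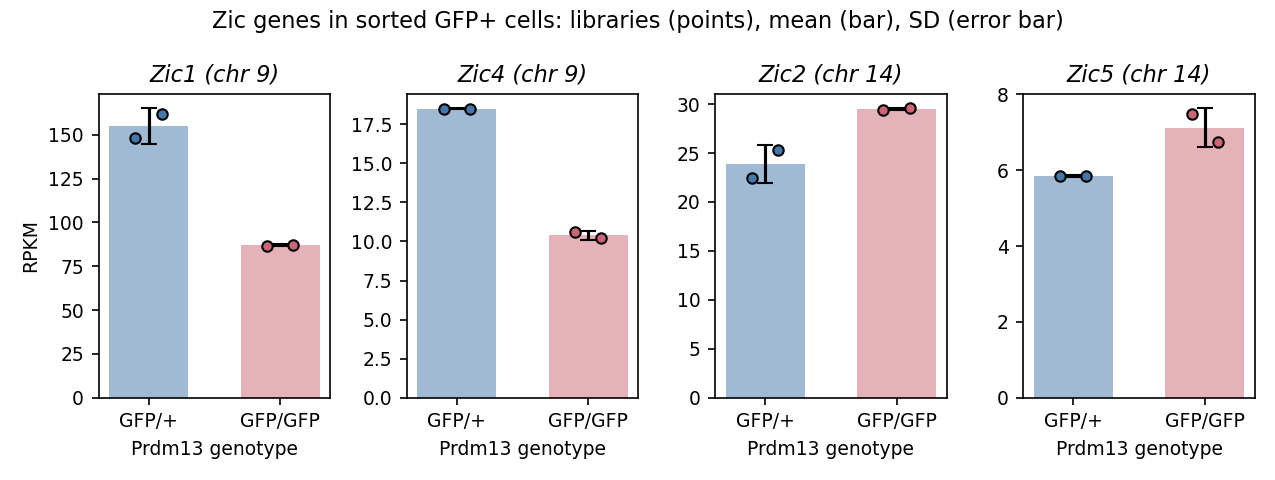
RPKM (vertical axis, from 0, a separate scale for each gene) of the 4 Zic genes in *Prdm13GFP/+* (blue) and *Prdm13GFP/GFP* (red) cells; points are the 2 libraries of each genotype, bars their mean and error bars the SD. *Zic1* went from 155 to 87.0 RPKM and *Zic4* from 18.5 to 10.4, while *Zic2* and *Zic5* were higher in the mutant libraries, at 29.5 and 7.12 RPKM.

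On the RPKM scale, which is per exon length, the order of the levels was *Zic1*, *Zic2*, *Zic4*, *Zic5* in all 4 libraries, and no neighbours in that order overlapped within a genotype. *Zic2* and *Zic4* were the closest in the control cells, with *Zic2* at 1.21 and 1.37 times *Zic4* after 0.1 RPKM was added to each. The summed level of the 4 genes was 195 and 212 RPKM in the *Prdm13GFP/+* libraries and 134 in each *Prdm13GFP/GFP* library. The share of that sum from *Zic1* went from 76.3 ± 0.472% to 64.9 ± 0.508%, and the share from *Zic2* from 11.7 ± 0.256% to 22.0 ± 0.0897%. *Zic4* supplied 9.11 ± 0.564% and 7.74 ± 0.214%, and *Zic5* 2.88 ± 0.164% and 5.31 ± 0.383%. The mutant libraries held less RNA of these 4 genes in all, and a larger portion of it came from chromosome 14.

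Ratios between members within a library were taken on RPKM + 0.1, so library scaling enters them only through the added 0.1. The *Zic1* to *Zic4* ratio was 7.95 and 8.76 in the *Prdm13GFP/+* libraries and 8.11 and 8.53 in the *Prdm13GFP/GFP* libraries. These overlapped, with a difference of -0.0047 on the log2 scale against a pooled SD of 0.0783 (exact permutation test, two-sided, p = 1.0). The *Zic2* to *Zic5* ratio was 3.81 and 4.26 in the controls and 3.89 and 4.33 in the mutants, a log2 difference of 0.03 with a pooled SD of 0.111 (exact p = 0.667). With 2 libraries against 2 the smallest p this test can give is 0.333, so it could not detect a difference, and these ratios are given as values only.

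Ratios across the loci differed between the genotypes by more than 1 log2 unit. The *Zic1* to *Zic2* ratio went from 6.55 and 6.41 in the *Prdm13GFP/+* libraries to 2.93 and 2.95 in the *Prdm13GFP/GFP* libraries, a log2 difference of -1.14 with a pooled SD of 0.0161. The *Zic4* to *Zic5* ratio went from 3.14 and 3.11 to 1.41 and 1.5, a log2 difference of -1.11 with a pooled SD of 0.045. The *Zic1* to *Zic5* ratio differed by -1.11 and the *Zic2* to *Zic4* ratio by 1.13 on the log2 scale. In each of these 4 pairs the genotypes did not overlap, and the exact permutation p was 0.333, that smallest value. The 6 pairs share genes, so they are not independent of one another.

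**Figure D2:**
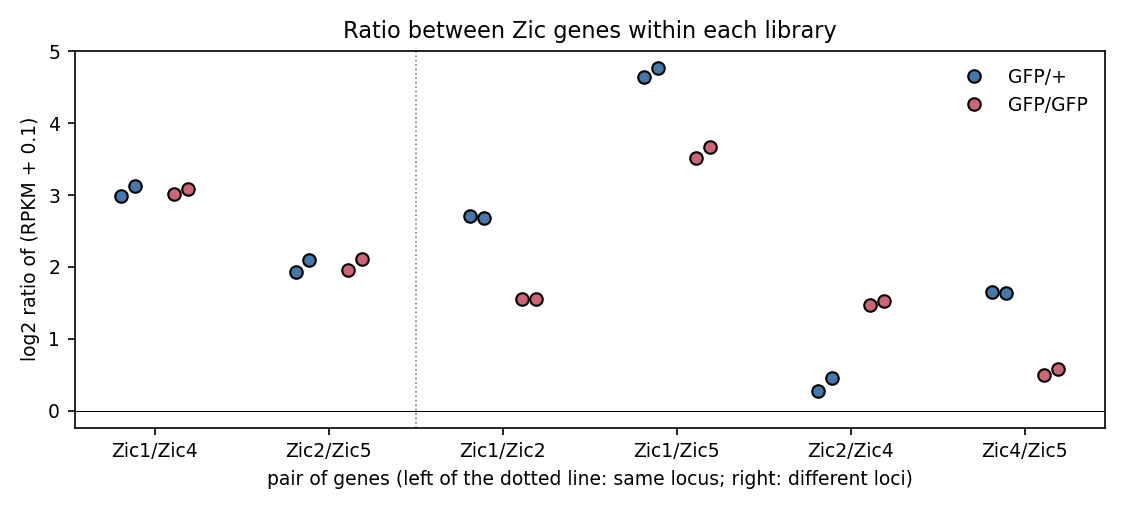
Log2 ratio of RPKM + 0.1 between pairs of Zic genes (vertical axis) in each library, with *Prdm13GFP/+* in blue and *Prdm13GFP/GFP* in red. The 2 pairs left of the dotted line are neighbours at 1 locus and overlap between genotypes, and the 4 pairs on the right combine genes of different loci and differ by 1.11 to 1.14 in size.

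The changes were compared with those of the nearest genes. Up to 3 annotated genes on either side of each member gave 13 neighbours outside the family, of which 10 could be tested. Of these, 0 were called in limma, 4 had an unadjusted p and 2 an adjusted p under 0.05. Over all genes tested, 6.33% were called in limma. An adjusted p under 0.05 was reached by 9.95% of them in the lower direction and 9.76% in the higher. The share at an unadjusted p is not given here. By limma voom on recovered reads 1 neighbour, *Gm5089*, was called (log2 fold change 0.71, adjusted p = 0.046). *2610035F20Rik*, a long noncoding RNA between *Zic5* and *Zic2* whose span ends 185 bases before that of *Zic2*, measured 3.84 and 5.46 RPKM in the *Prdm13GFP/+* libraries and 6.58 and 6.11 RPKM in the *Prdm13GFP/GFP* libraries. Its log2 fold change was 0.46 (95% interval 0.08 to 0.84, limma adjusted p = 0.0925), and it did not pass the test. *Gm5089*, a noncoding RNA on the other side of *Zic5*, stood at 0.64 (adjusted p = 0.147) on only 18 to 45 reads.

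*Pcca*, a mitochondrial propionyl-CoA carboxylase subunit that starts beyond *Zic2*, was measured at 10.3 RPKM in both *Prdm13GFP/+* libraries and at 7.96 and 7.95 RPKM in the *Prdm13GFP/GFP* libraries. Its log2 fold change of -0.37 (limma adjusted p = 0.00908) was opposite in sign to those of *Zic2* and *Zic5* and under the fold limit. On chromosome 9 the nearest tested genes lie far from the pair, with *Tbc1d2b* 1087286 bases below *Zic1* and *Plscr1* 860843 bases above *Zic4*. Their log2 fold changes were -0.16 (limma adjusted p = 0.219) and 0.17 (adjusted p = 0.274). *Adamts7*, a secreted metalloprotease 1157956 bases below *Zic1*, measured 12.1 and 12.9 RPKM in the *Prdm13GFP/+* libraries and 10.1 and 10.6 RPKM in the *Prdm13GFP/GFP* libraries. Its log2 fold change of -0.27 (limma adjusted p = 0.0361) had the sign of *Zic1* and *Zic4* and was under the fold limit.

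**Figure D3:**
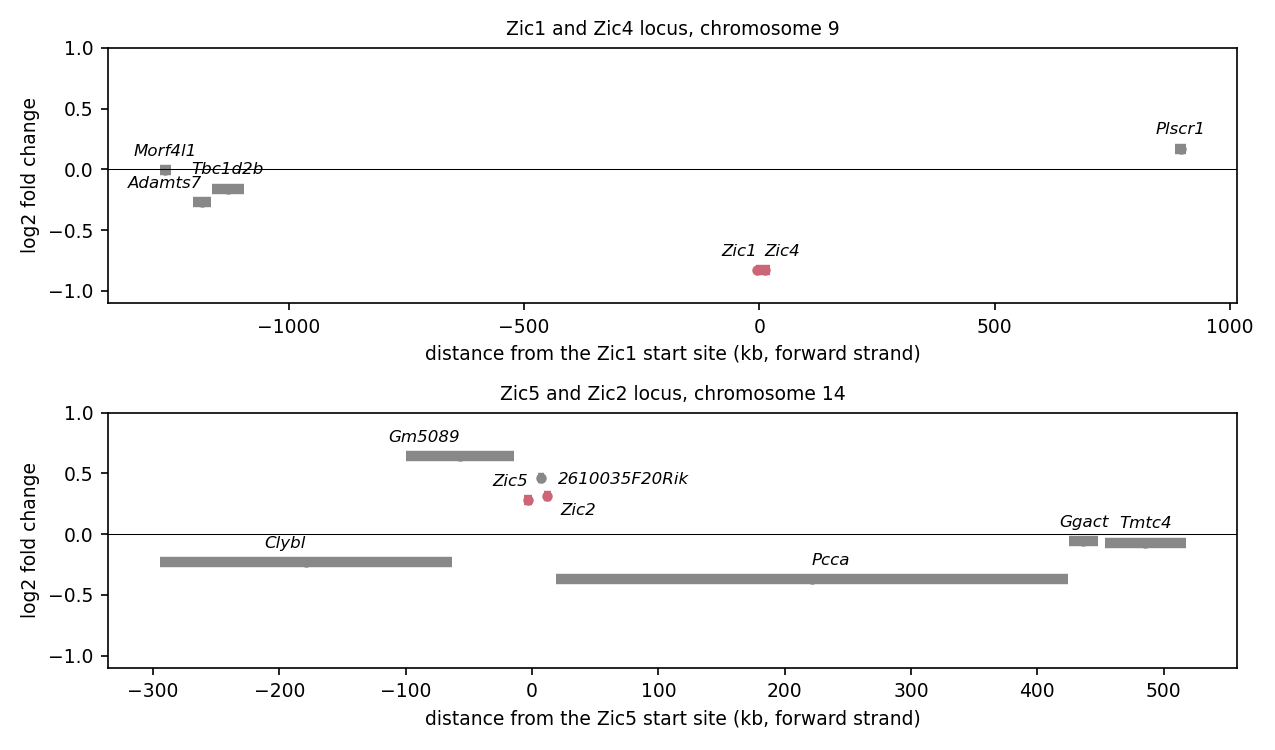
Log2 fold change (vertical axis) of the Zic genes (red) and their tested neighbours (grey), placed by distance in kilobases from the start of *Zic1* (upper panel) or *Zic5* (lower panel), with bars for annotated gene spans and dots at their middle. *Zic1* and *Zic4* sit together at -0.83 with no tested neighbour within 860843 bases, and *Zic2* and *Zic5* lie beside noncoding RNAs with positive values and *Pcca* at -0.37.

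The *Zic1* and *Zic4* annotations share 60 exon bases in GENCODE on opposite strands, beside exon lengths of 3350 and 4088 bases solved from the RPKM steps. Whether reads were counted by strand is not given in the sources used here. Without strand, reads in those bases could not be assigned to 1 gene, and their part in the shared change was not tested.

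Other genes tied to ZIC function were read from lists. Of 6 GLI and GLIS genes, the closest zinc-finger relatives, 4 were expressed enough to test and 0 were called in limma (1 at an unadjusted p under 0.05, 0 by voom). *Gli2* measured 14.4 and 16.5 RPKM in the *Prdm13GFP/+* libraries and 14.4 and 14.7 RPKM in the *Prdm13GFP/GFP* libraries, a log2 fold change of -0.08 (95% interval -0.26 to 0.10). *Gli3*, which acts chiefly as a repressor, gave -0.06 (95% interval -0.19 to 0.08), and *Gli1* gave -0.14. *Glis2* gave 0.26 with a limma adjusted p of 0.0161, under the fold limit. The list median of -0.07 lay near the median of 0.01 over all genes tested.

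Of 9 dorsal progenitor transcription factors, 8 were tested, 4 were called lower and 0 higher, with a median log2 fold change of -0.52 beside 0.01 over all genes. All 8 values were below 0. *Gsx2*, a homeodomain factor of dorsal interneuron progenitors, went from 9.81 and 10.7 RPKM to 2.88 and 3.21 RPKM (log2 fold change -1.72, limma adjusted p = 8.04e-05). Its paralog *Gsx1* went from 19.1 and 21.2 to 8.12 and 9.61 RPKM (-1.18, adjusted p = 0.000530). Both log2 fold changes were larger in size than those of *Zic1* and *Zic4*, a difference that was not tested.

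*Msx2*, a BMP-responsive homeobox gene, went from 13.7 and 13.9 to 8.45 and 8.12 RPKM (log2 fold change -0.73, limma adjusted p = 0.000563). *Msx1* went from 3.22 and 3.17 to 1.78 and 2.12 RPKM (-0.69, adjusted p = 0.0149), and it lost its call with a pseudocount of 1 RPKM and whenever 1 library was left out. *Pax7* (-0.35) passed the adjusted p in limma at 0.0102 but not the fold limit. *Pax3*, a dorsal paired-box gene that acts with Zic1 in neural crest induction, measured 74.0 and 75.2 RPKM in the controls and 69.9 and 70.0 RPKM in the mutants (-0.09, 95% interval -0.20 to 0.01).

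Of 11 dorsal signals and roof plate genes, among them BMP and WNT ligands that position dorsal cells, 2 passed the filter on low values. The others were under 1 mean RPKM in both genotypes. *Wnt3* was called higher, from 6.78 ± 0.0971 to 10.6 ± 1.17 RPKM (mean ± SD, n = 2 libraries, log2 fold change 0.64, limma adjusted p = 0.00472). *Wnt1* was called lower, from 1.82 and 1.75 to 0.908 and 0.956 RPKM (-0.87, adjusted p = 0.0202), on 31 to 76 reads. With a pseudocount of 1 RPKM neither was called, and leaving out any single library ended the call of *Wnt1*. *Wnt3* lost its call without the second *Prdm13GFP/+* library (0.65, adjusted p = 0.0528) or the second *Prdm13GFP/GFP* library (0.52, adjusted p = 0.0519).

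Of 10 genes of the table known as ZIC targets or partners in other settings, 6 were tested, 1 was called higher and 1 lower, with a list median of -0.15. *Foxd3*, a forkhead factor of neural crest and dorsal interneurons, went from 10.1 and 12.8 RPKM to 4.20 and 4.25 RPKM (log2 fold change -1.41, limma adjusted p = 0.000527). *Ephb1*, an ephrin receptor whose gene ZIC2 activates in retinal axons, went from 1.91 and 2.02 to 4.11 and 4.40 RPKM (1.08, adjusted p = 0.00139). *Tcf7l2*, a WNT effector that ZIC factors bind, gave -0.40 (adjusted p = 0.0194) under the fold limit. *Apoe* (0.20) and *Mdfi* (-0.21) did not pass the test. *Atoh1*, a bHLH gene repressed by ZIC1, was below 1 mean RPKM in both genotypes.

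**Figure D4:**
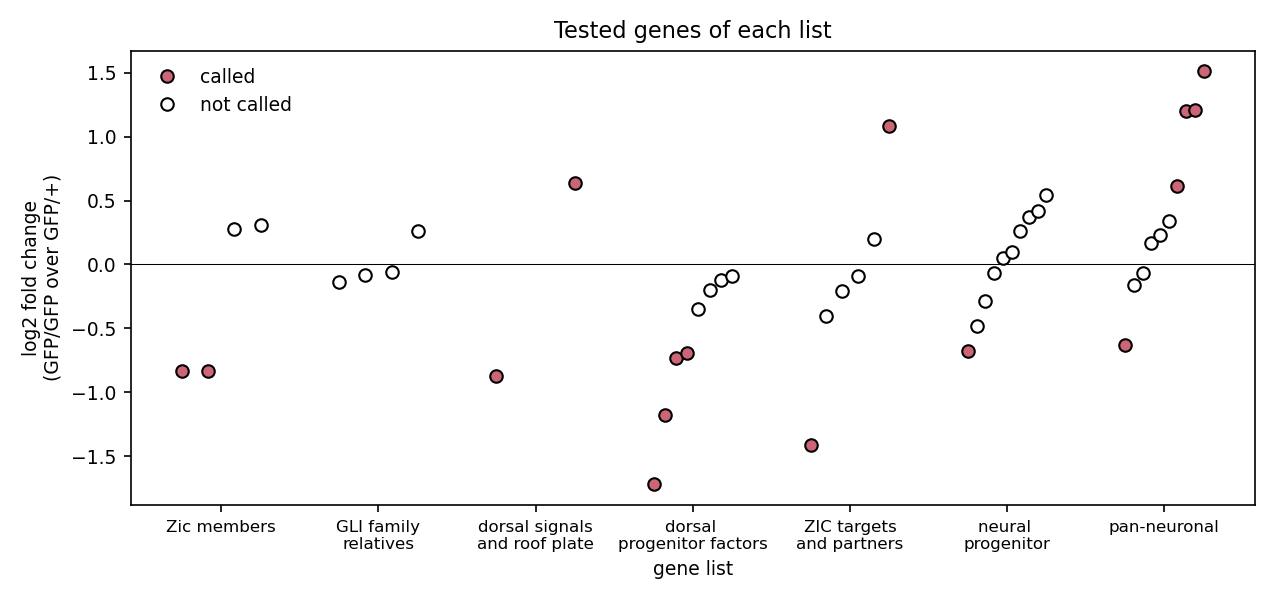
Log2 fold change between genotypes (vertical axis) of each tested gene in the Zic family and in 6 lists (horizontal axis), sorted within each list, with filled points for called genes. All 8 dorsal progenitor factors tested lie below 0 and 4 were called, while 4 pan-neuronal genes were called higher.

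The lists of maturity markers held members in both directions. Pan-neuronal genes summed to 1792 to 1839 RPKM in the *Prdm13GFP/+* libraries and 2354 to 2448 RPKM in the *Prdm13GFP/GFP* libraries. Of the 10, 4 were called higher and 1 lower, with a median log2 fold change of 0.28. *Tubb3*, a neuronal tubulin with the largest level in the list, went from 1040 to 1318 mean RPKM without reaching the fold limit (0.34, limma adjusted p = 0.00688). *Nefl* and *Nefm*, neurofilament subunits, went from 43.7 to 125 and from 36.8 to 85.4 mean RPKM, and *Snap25*, a synaptic fusion protein, from 24.0 to 15.5. *Dcx* (-0.07) and *Map2* (-0.16) did not pass the test. Neural progenitor genes summed to 2218 to 2237 RPKM and 2232 to 2315 RPKM, with 1 of 10 called, *Sox1*, from 14.6 to 9.04 mean RPKM, and a median of 0.08. Of the 10, 7 had a limma adjusted p under 0.05, and they went both ways. *Sox2* (log2 fold change -0.48, adjusted p = 0.00214) and *Hes1* (-0.29, 0.0221) were lower, and *Sox3* (0.54, 0.00556), *Hes5* (0.42, 0.0218), *Notch1* (0.37, 0.0111) and *Pax6* (0.26, 0.0202) were higher, all under the fold limit in limma. The part of these shifts in the Zic values was not tested.

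The labelled lineage was present in every library. Of 6 genes of the *Prdm13* lineage, 2 were called higher and 4 lower, among them *Pax2*, a marker of inhibitory dorsal interneurons, from 106 and 119 to 17.7 and 18.6 RPKM. The 10 somite and mesenchyme genes, a tissue where Zic genes are also active, summed to 13.2 to 15.4 RPKM in the *Prdm13GFP/+* libraries and to at most 13.6 RPKM in the *Prdm13GFP/GFP* libraries, with 0 of 2 tested genes called (0 at an unadjusted p under 0.05, 0 by voom). The 4 neural crest and dorsal root ganglion genes summed to 12.2 to 15.2 RPKM and 6.90 to 7.27 RPKM, with *Foxd3*, which made up most of the sum in each library, called lower and 0 called higher, and the defining markers *Sox10* and *Erbb3* were both below 1 RPKM in every library. The part of this shift in the Zic values was not tested. Erythroid genes summed to 30.8 to 31.4 RPKM and 33.1 to 34.5 RPKM, and 5 endothelial genes to 2.09 to 2.31 RPKM and 2.15 to 2.29 RPKM. Most of the erythroid sum came from *Hbb-y*, at 23.7 and 26.1 RPKM in the *Prdm13GFP/+* libraries and 28.3 and 26.7 RPKM in the *Prdm13GFP/GFP* libraries. *Hbb-bh1* measured 6.66 and 4.92 RPKM and 5.75 and 5.99 RPKM, so erythroid RNA was present, while *Hba-a1* and *Hba-a2* were at 0 in all libraries. For both lists 0 genes were called, erythroid on 2 tested genes (0 at an unadjusted p under 0.05, 0 by voom) and endothelial on 0. *Tcf15* made up most of the somite and mesenchyme sum, at 9.47 and 11.3 RPKM in the *Prdm13GFP/+* libraries and 8.52 and 10.6 RPKM in the *Prdm13GFP/GFP* libraries. The part of such cells in the Zic values was not tested.

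Genes with a pattern over the 4 libraries most like that of each called member were found by Euclidean distance of log2(RPKM + 0.1), centred on each gene's mean, among 6895 genes with a mean of at least 10 RPKM. For *Zic1* the nearest were *Nav2*, a cytoskeletal neuron navigator (distance 0.048), *Hoxb1*, a homeobox gene (0.0773), and *Asic4*, an acid-sensing channel relative (0.0893). *Zic4* was order 6 in that ranking at 0.111 and *Zic2* was order 6485. For *Zic4* the nearest were *Cacna2d2*, an auxiliary calcium channel subunit (0.0525), *Psat1*, an enzyme of serine synthesis (0.0789), and *Nav2* again (0.079), with *Zic1* at order 8. *Nav2* measured 16.6 and 17.4 RPKM in the *Prdm13GFP/+* libraries and 9.30 and 9.41 RPKM in the *Prdm13GFP/GFP* libraries. These distances describe 4 libraries from 2 pools and carry no test.

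Under 12 alternative analyses the members kept their directions. *Zic1* stayed between -0.90 and -0.77 and *Zic4* between -0.86 and -0.78 on the log2 scale, and each was called in 11 of the 12. The call was lost for both when genes with low values were kept in the fit (adjusted p = 0.0646 and 0.051). *Zic2* ran from 0.22 to 0.39 with an adjusted p under 0.05 in 7 of the 12, and *Zic5* from 0.20 to 0.35 with one in 3, and neither reached the fold limit in any.

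**Figure D5:**
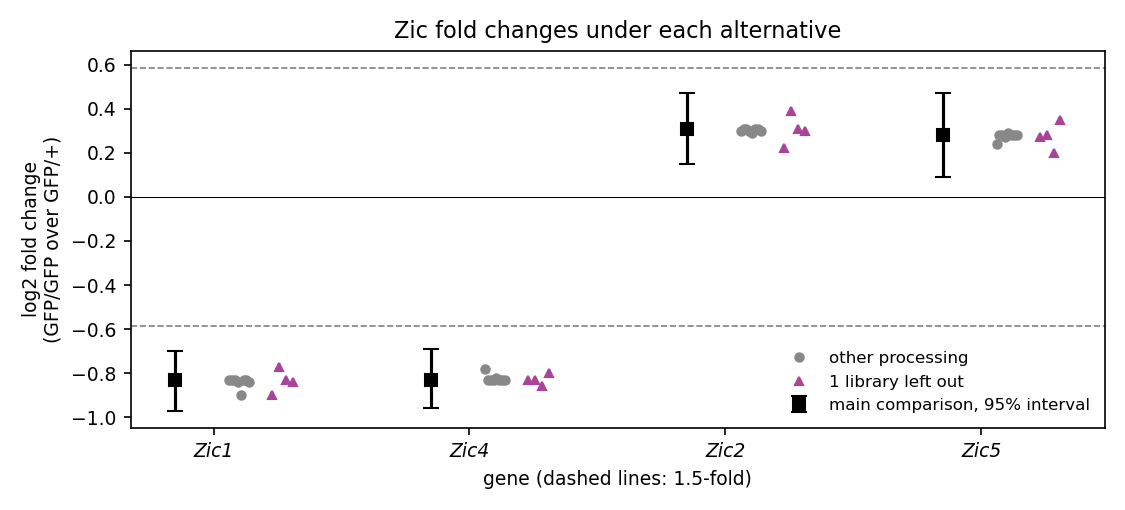
Log2 fold change (vertical axis) of the 4 Zic genes in the comparison reported here (black squares with 95% intervals), under other processing (grey circles) and with 1 library left out (purple triangles); dashed lines mark a fold of 1.5. All values of *Zic1* and *Zic4* lie below the lower line, from -0.90 to -0.77, and all values of *Zic2* and *Zic5* lie between 0 and the upper line.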

How the data were processed

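RNA-seq of sorted GFP+ cells was taken as deposited. The authors used TopHat2 2.1.0 for alignment to mm10, featureCounts for read counts over RefSeq genes and TMM in edgeR 3.6.8 for normalization, and deposited RPKM for 24421 genes in 4 libraries. Genotypes were taken from the labels. The 12046 genes whose mean RPKM reached 1 in *Prdm13GFP/+* or *Prdm13GFP/GFP* were tested on log2(RPKM + 0.1) by limma 3.58.1 in R 4.3.3 (eBayes with a trend, two-sided, Benjamini-Hochberg). Fold changes on this scale understate those of low genes. Whole reads were recovered from the RPKM steps for 99.98% of 19200 genes above 0, within a tolerance of 0.003 reads, and intervals or errors from them cover counting error only. Scripts were tested on simulated data. Genes named are the members, the called and defining genes of the lists, up to 3 neighbours a side and the 3 most alike genes per called member. List genes named without a call were picked with their values in view. The members and lists were chosen with earlier results of these data known. The results of a further gene of the family and of some list genes are not reported here, and these list genes were taken out of the lists and sums with values in view. Alternatives were other pseudocounts, no filter, other scalings, eBayes without a trend, a replicate block, voom on recovered reads and leaving out each library. Python 3.11.15, numpy 2.4.6, pandas 2.3.3, scipy 1.17.1 and matplotlib 3.10.9 were used.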

Additional observations from a re-analysis of the deposited data

How the results depend on the processing

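Of 142 values recomputed under an alternative, 129 were scored as unchanged, a score that allowed some change in size. Genes called lower went from 322 to 221 with a pseudocount of 1 RPKM and were scored so. The ratios within a locus did not all keep their sign. The log2 difference of *Zic1* to *Zic4* ran from -0.07 to 0.06, and that of *Zic2* to *Zic5* from -0.05 to 0.11. With no filter on low values, *Zic1* and *Zic4* were at -0.83 each on the log2 scale and lost their calls (adjusted p = 0.0646 and 0.051), and over all genes 14 were called lower and 30 higher, against 322 and 440, and the cause was not tested. Leaving out 1 library gave 212 to 266 genes called lower and 258 to 437 called higher, lowest in both directions without the second *Prdm13GFP/GFP* library. In the list of dorsal signals, 2 genes were called, 0 with a pseudocount of 1 RPKM, and 0 to 1 when 1 library was left out. A pseudocount of 1 RPKM moved the log2 difference of *Zic1* to *Zic2* from -1.14 to -1.12 and that of *Zic4* to *Zic5* from -1.11 to -1.02. The replicate numbers do not pair the libraries: deviations of same-numbered libraries correlated at 0.047 over 12046 genes. With the replicate number as a block, *Zic1* and *Zic4* stayed at -0.83 (adjusted p = 7.28e-05 and 0.000207), *Zic2* at 0.31 (0.00962) and *Zic5* at 0.28 (0.0429), and no member's call changed. No scaling moved the median log2 fold change of all genes outside -0.01 to 0.01. The deposited values were already scaled by TMM, and each scaling brings the libraries to a common level. That median was therefore largely fixed beforehand and is no check of the scaling. With 1 RNA pool per genotype, more reads would not show variation between embryos.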
